A study of Mus musculus with 107 samples.

Results

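The genes of MHC class II presentation and Ciita, the coactivator on which their transcription depends, were examined in mouse syngeneic tumors grown with or without lenvatinib. The 9 genes were taken by symbol from the expression table (H2-Aa, H2-Ab1, H2-Eb1, Cd74, H2-DMa, H2-DMb1, H2-Oa, H2-Ob and Ciita) and make up 9 of the 50686 genes listed for each tumor. The tumors came from 12 cell lines implanted under the skin of 7-week-old mice and were collected treatment-naive (35 tumors) or on day 8, without treatment (NT, 36 tumors) or with lenvatinib (LEN, 36 tumors). Lenvatinib, an inhibitor of receptor tyrosine kinases including the VEGF and FGF receptors, was given by mouth at 10 mg/kg once a day for 7 days, from a tumor volume of about 100 mm3. Each group of a model held 3 tumors, except treatment-naive MC38 with 2.

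The host strain sets the H2 haplotype, that is, the alleles carried at the class II genes. BNL 1ME A.7R.1 (here BNL), RAG, 4T1, CT26.WT, EMT6 and Renca grew in BALB/cAnNCrlCrlj mice and KLN205 in DBA/2NCrl mice, all of haplotype H2-d. MC38 and B16-F10 grew in C57BL/6NCrl, LL/2 in C57BL/6JCrl and Hepa 1-6 in C57L/J mice, all of haplotype H2-b, and MBT2 grew in C3H/HeNCrl mice, of haplotype H2-k. The hosts of Hepa 1-6 and BNL were male and the others female. Every model is 1 cell line, and cancer cells, leukocytes and vessels were measured together in each library.

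Class II molecules are pairs of an alpha and a beta chain that carry peptides from the endosome to the cell surface, where CD4+ T cells read them. H2-Aa and H2-Ab1 encode the chains of I-A and H2-Eb1 the beta chain of I-E. Cd74, the invariant chain, fills the groove during assembly, H2-DM (H2-DMa with H2-DMb1 or H2-DMb2) loads peptides, and H2-DO (H2-Oa with H2-Ob) restrains H2-DM, mainly in B cells. Ciita binds no DNA itself but joins the RFX, CREB and NF-Y factors at the X and Y boxes of class II promoters. It is active in dendritic cells and B cells and can be induced by interferon gamma in many other cells, cancer cells included.

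Promoter stretches are shown because these boxes are the known meeting point of Ciita and the class II genes. Stretches of 120 bases, from position -130 to -11 relative to the start of transcription, were read from RefSeq on GRCm38.p6, which is the genome of C57BL/6J. Capitals mark ATTGG or the longer CTGATTGG (Y box) and CNNATGATG, an X-box-like word chosen after the sequences had been read.
H2-Aa (chr17:34287834-34287953, minus strand): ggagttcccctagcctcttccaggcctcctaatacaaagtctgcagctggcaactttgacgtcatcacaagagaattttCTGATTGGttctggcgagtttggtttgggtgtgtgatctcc
H2-Eb1 (chr17:34305737-34305856, plus strand): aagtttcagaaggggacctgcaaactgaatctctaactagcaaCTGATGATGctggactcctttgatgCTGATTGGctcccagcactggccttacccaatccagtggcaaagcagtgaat
H2-DMb1 (chr17:34153061-34153180, plus strand): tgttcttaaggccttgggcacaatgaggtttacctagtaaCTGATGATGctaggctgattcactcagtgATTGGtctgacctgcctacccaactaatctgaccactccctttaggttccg
H2-DMb2 (chr17:34145119-34145238, plus strand): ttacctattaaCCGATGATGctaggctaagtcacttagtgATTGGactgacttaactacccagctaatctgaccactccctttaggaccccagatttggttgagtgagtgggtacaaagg
H2-Oa (chr17:34092249-34092368, plus strand): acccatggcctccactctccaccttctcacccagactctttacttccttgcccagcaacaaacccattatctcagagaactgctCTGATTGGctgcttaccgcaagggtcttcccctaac
H2-Ob (chr17:34238775-34238894, plus strand): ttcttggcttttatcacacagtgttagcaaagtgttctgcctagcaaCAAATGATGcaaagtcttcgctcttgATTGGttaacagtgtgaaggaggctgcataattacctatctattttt

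ATTGG began at position -48 in H2-Aa, -59 in H2-Eb1, -61 in H2-DMb1, -90 in H2-DMb2, -43 in H2-Oa and -57 in H2-Ob. The X-box-like word lay upstream of it in H2-Eb1 (from -87), H2-DMb1 (from -90), H2-DMb2 (from -119) and H2-Ob (from -83), and its letters were not in the H2-Aa and H2-Oa windows. Searched on both strands of windows of 300 bases, ATTGG was in 37.4% of 32851 RefSeq promoters, CTGATTGG, which contains it, in 4.1% and CNNATGATG in 2.75%. Of 8 class II genes with a promoter entry (H2-Aa, H2-Eb1, H2-Eb2, H2-DMa, H2-DMb1, H2-DMb2, H2-Oa and H2-Ob), 8 held ATTGG, 4 held CTGATTGG and 4 held CNNATGATG. The last word was chosen from these same sequences, so its count among them is no test. TGACGTCA, also searched, was in 1.79% of the promoters and in 1 of the 8 genes, H2-Aa. A match describes letters only and is no evidence of binding in these tumors. No stretch is shown for H2-DMa and H2-Eb2 although they have an entry, and H2-Ab1, Cd74 and Ciita are named only.

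In treatment-naive tumors, class II transcripts were abundant in 3 models and lower in the rest. Hepa 1-6 had the highest mean of every member except H2-Oa, RAG and Renca came next for the core genes (H2-Aa, H2-Ab1, H2-Eb1 and Cd74), and B16-F10, EMT6 and BNL lay near the bottom of that order. Cd74, the most abundant member, measured 2275, 2081 and 2780.2 TPM (transcripts scaled to a fixed total in each tumor) in the Hepa 1-6 tumors. It measured 1505, 1644 and 1432 TPM in RAG and 943, 1093 and 962 TPM in Renca. The tumors of these 3 models overlapped neither each other nor any other model. Among the other 9 models the mean of Cd74 ran from 459 ± 228 TPM (SD, n = 3) in CT26.WT to 116 ± 27.2 TPM (SD, n = 3) in B16-F10, and each model overlapped its neighbour in that order.

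Ciita stood in the same order at the top, at a far lower level. It averaged 26.1 ± 4.92 TPM (SD, n = 3) in Hepa 1-6, 15.3 ± 1.53 TPM (SD, n = 3) in RAG and 12.9 ± 1.82 TPM (SD, n = 3) in Renca, and only Hepa 1-6 was apart from the model after it. The remaining 9 models averaged 2.20 (B16-F10) to 7.62 TPM (4T1), each overlapping its neighbour. From the lowest to the highest model mean, H2-Aa spanned 22.9-fold, H2-Ab1 27.1-fold, H2-Eb1 25.9-fold, Cd74 20.5-fold, H2-DMa 12.2-fold, H2-DMb1 25.6-fold and Ciita 11.8-fold. The lowest H2-Ab1 mean was that of MBT2 (31.8 TPM), the H2-k model, with B16-F10 next at 47.3 TPM, and the MBT2 level cannot be told apart from poorer mapping of its allele. Differences between the models passed the limma F test for 8 of 8 members above a mean of 1 TPM, beside 93.6% of all genes tested, so the members' count is near the background. H2-Ob lay below that mean and passed when no minimum was set (Benjamini-Hochberg adjusted p = 3.55e-05).

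Of the H2-DO genes, H2-Oa was ordered differently. H2-Oa measured 5.73 and 2.62 TPM in MC38 and averaged 3.83 ± 1.19 TPM (SD, n = 3) in Renca and 2.45 ± 1.75 TPM (SD, n = 3) in Hepa 1-6. In the other 9 models its means lay between 0.277 and 0.453 TPM, apart from those 3. MC38, first for H2-Oa, lay well below Renca and Hepa 1-6 for Cd74, at 379.6 TPM. H2-Ob, the partner chain, reached 2.47 TPM at most in any tumor and averaged 1.60 ± 0.294 TPM (SD, n = 3) in Hepa 1-6, its highest model, with every model overlapping the next. RAG (1.08 TPM) and Renca (1.07 TPM) followed for H2-Ob, the same top order as for Cd74. B cell markers were low but not uniformly so: Ms4a1 was listed at 0 in 29 tumors and reached 0.76 TPM at most, whereas Cd22 was listed at 0 in no tumor and reached 12.5 TPM. Pax5 reached 10.0 TPM, Cd79a 4.82 TPM and Cd79b 3.24 TPM, and the part of B cells in the H2-DO levels was not tested.

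**Figure D1:**
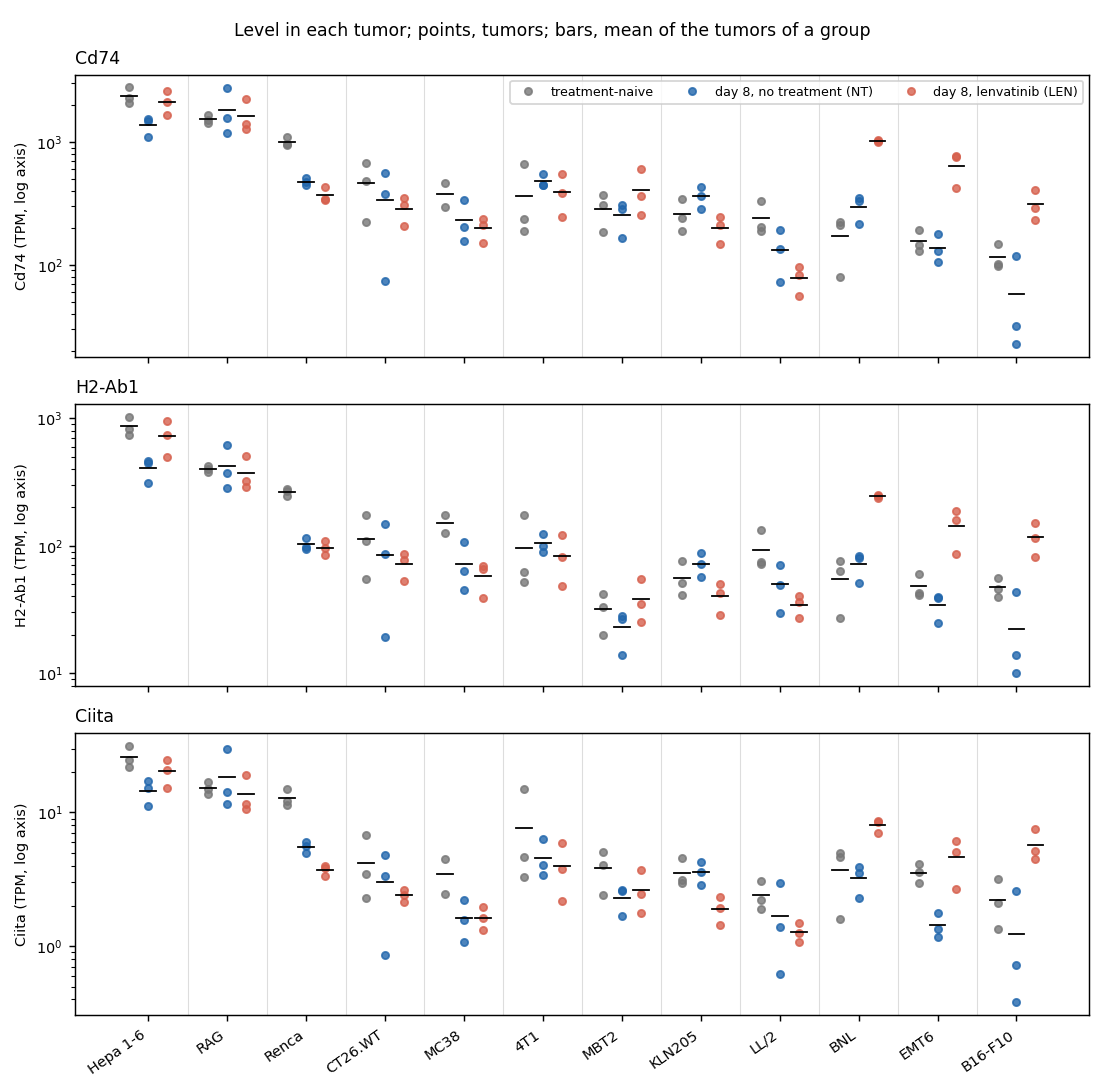
Level of Cd74, H2-Ab1 and Ciita (TPM, log axis) in each tumor of the 12 models, ordered by treatment-naive Cd74, with grey points for treatment-naive, blue for day 8 NT and red for day 8 LEN tumors and black bars for group means. Hepa 1-6, RAG and Renca stand highest among treatment-naive tumors, and the LEN tumors of BNL, EMT6 and B16-F10 lie above every NT tumor of the same model.

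Over all tumors the core genes moved closely together. The lowest Pearson r between any pair of them on the log2(TPM + 1) scale was 0.93, and 0.97 when each tumor was taken as its deviation from the mean of its model and group. With the core genes, Ciita had r from 0.93 to 0.94, H2-DMa from 0.89 to 0.95, H2-DMb1 from 0.73 to 0.85, H2-Ob from 0.66 to 0.73 and H2-Oa from 0.33 to 0.38. On deviations, r ran from 0.91 to 0.93 for Ciita, 0.91 to 0.92 for H2-DMb1, 0.34 to 0.38 for H2-Oa and 0.26 to 0.33 for H2-Ob. These values describe tumors that share models, hosts and libraries, and H2-Oa and H2-Ob lay near the lower end of the scale.

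Of 13260 protein-coding genes ranked over all tumors, those most like the class II level (the mean log2(TPM + 1) of the core genes) were the complement gene C3 (r = 0.87), Gm2a, which encodes the GM2 activator (0.85), the nuclease gene Dnase1l3 (0.84), the integrin gene Itgal (0.83) and Pdcd1lg2, which encodes PD-L2 (0.82). The pan-leukocyte gene Ptprc had r = 0.72, the dendritic cell marker Itgax 0.79 and the macrophage marker C1qa 0.62. Most like Ciita were Gm2a (0.90), C3 (0.86), Rasgrp1 (0.84), Dexi (0.83) and Bicc1 (0.83). Dexi overlaps Ciita on the opposite strand of chromosome 16 (GRCm38, 10502531 to 10543054 against 10480059 to 10528418) and had a median of 10.4 TPM. No source used here says whether strand was counted, so reads from the stretch that this pair shares may not be told apart, and the same may hold for H2-DMa and the abundant Brd2 (median 112 TPM).

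H2-Ob was most like Rubcnl (0.72), Aoah (0.71), Pepd (0.71), the macrophage gene Mpeg1 (0.69) and Rnase6 (0.69). On deviations from group means, the class II level went most closely with H2-DMb2 (0.90), Fgl2 (0.85), the class I gene H2-T23 (0.83), the Fc receptor gene Fcgr4 (0.82) and the selectin ligand gene Selplg (0.82), with Ptprc at 0.81.

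**Figure D2:**
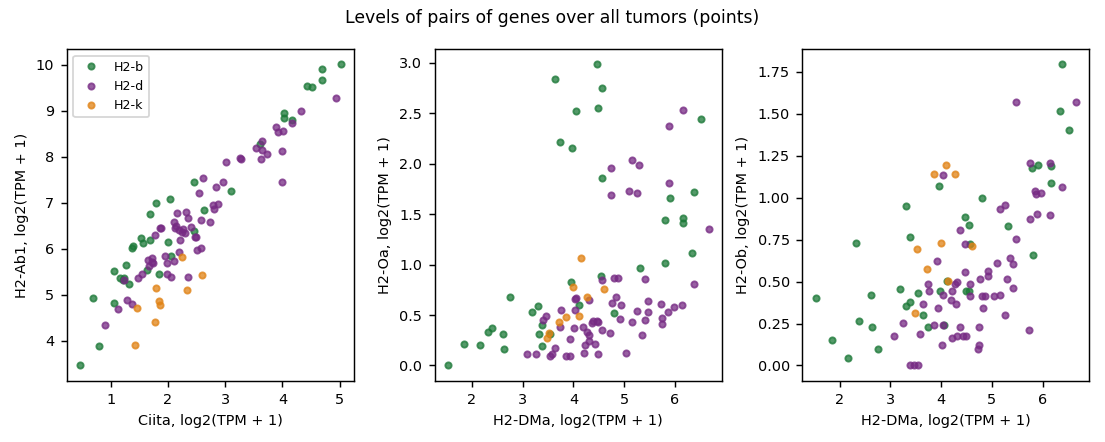
Pairs of genes over all tumors, each axis log2(TPM + 1), with H2-Ab1 against Ciita, H2-Oa against H2-DMa and H2-Ob against H2-DMa and colors for the H2 haplotype. H2-Ab1 rises along with Ciita, with r between Ciita and the core genes of 0.93 to 0.94, and H2-Oa is spread widely at like levels of H2-DMa.

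Some class II genes differed sharply with the H2 haplotype of the host. The alpha chain of I-E, listed as H2-Ea-ps, is disrupted on the H2-b chromosome and intact on H2-d and H2-k. It was listed at 0 in 34 of 35 tumors from H2-b hosts and reached 0.29 TPM in the remaining tumor. In the 63 tumors from H2-d hosts it measured 15.6 to 668 TPM and in the 9 MBT2 tumors 18.5 to 58.6 TPM, so the H2-b tumors were apart from all others. Its partner H2-Eb1 did not follow that split: treatment-naive model means averaged 6.96 ± 1.98 (log2(TPM + 1), SD, n = 4 models) in H2-b and 6.36 ± 1.42 (SD, n = 7 models) in H2-d. A two-sided exact permutation test of 4 against 7 model means gave p = 0.00606 for H2-Ea-ps, the smallest this design allows, and 0.0606 after adjustment over the 10 genes tested, so that 1 gene alone could not pass 0.05. For the 9 members the adjusted p of the exact permutation test ranged from 0.424 (H2-DMb1) to 0.952 (Cd74), and none had an unadjusted p under 0.05.

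H2-DMb1 and its neighbour H2-DMb2, alternative beta chains of H2-DM, traded places between haplotypes. H2-DMb2 over H2-DMb1 was 0.00882 to 0.348 in H2-b, 1.11 to 3.93 in H2-d and 1.02 to 1.62 in H2-k tumors. H2-DMa over H2-DMb1 was 0.277 to 1.05 in H2-b and 1.72 to 7.00 in H2-d tumors, again without overlap. With both beta chains summed, the ratio was 0.275 to 0.896 and 0.681 to 1.86, and the haplotypes overlapped. In the reference transcripts 37.6% of the 31-base words of H2-DMb1 also occur in H2-DMb2, so reads can be split between this pair and the level of each is uncertain.

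MBT2 stood apart for H2-Ab1, the beta chain of I-A. H2-Aa over H2-Ab1 was 2.23 to 2.68 in its 9 tumors and 0.566 to 1.32 in the 98 tumors of the other models. H2-Eb1 over H2-Ab1 was 1.40 to 1.80 in MBT2 and 0.614 to 1.11 elsewhere, and Cd74 over H2-Ab1 was 8.76 to 11.8 and 2.07 to 5.14. None of these ranges overlapped. MBT2 is the only H2-k model, and a lower H2-Ab1 level cannot be told apart from poorer mapping of the H2-k allele to a C57BL/6J genome. The same limit applies to levels set side by side between H2-b and H2-d hosts, but not to groups of the same model.

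**Figure D3:**
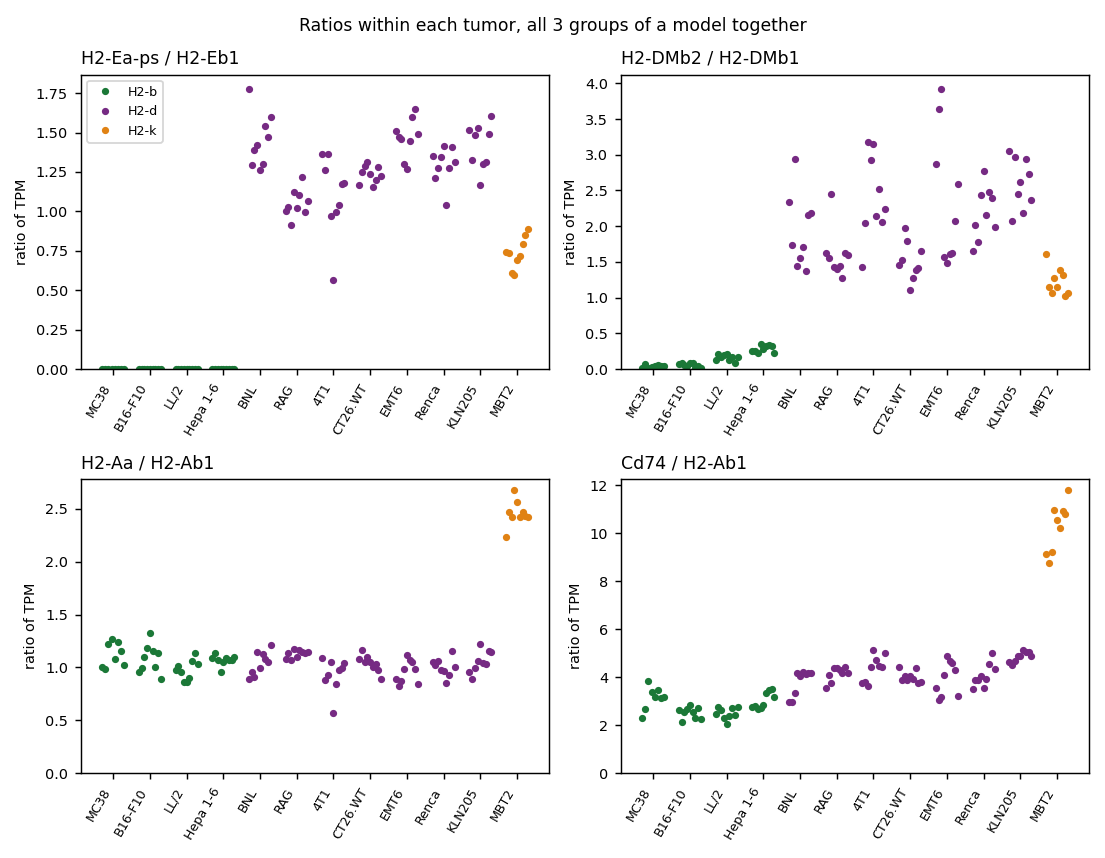
Ratio of TPM between class II genes within each tumor, by model, all 3 groups of a model together, with green points for H2-b, purple for H2-d and orange for H2-k. H2-Ea-ps over H2-Eb1 and H2-DMb2 over H2-DMb1 are lowest in the 4 H2-b models, and MBT2 is highest for H2-Aa and Cd74 over H2-Ab1.

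Cell lines were checked against markers of their tissue. Tyr was 241 to 319 TPM in the melanoma B16-F10, Krt5 467 to 1345 TPM in the squamous carcinoma KLN205 and Alb 1810.1 to 2399.6 TPM in the hepatoma Hepa 1-6, but Alb reached only 0.09 TPM in BNL, also labelled as liver. Every tumor was most similar to another tumor of its own model. Protein-coding genes took 27.5% to 66.6% of TPM. Since TPM holds no read counts, how deeply each tumor was sequenced is not known here.

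The main comparison asked whether a week of lenvatinib changed class II transcripts relative to untreated tumors of the same day. Averaged over the 12 models, LEN minus NT was 0.47 ± 0.14 for H2-Aa, 0.49 ± 0.13 for H2-Ab1, 0.50 ± 0.14 for H2-Eb1 and 0.47 ± 0.13 for Cd74 (difference of log2(TPM + 1) ± SE, 72 tumors). The limma adjusted p-values were 0.00841, 0.00312, 0.00499 and 0.00518. These 4 of 8 members tested were called higher, beside 13.7% of all 17351 genes called higher and 9.87% lower. The median difference was 0.35 over the 8 members and -0.00189 over all genes. Of the calls over all genes 58.1% were higher, against 41.9% after upper-quartile rescaling and 49.1% after rescaling over protein-coding genes, and the same 4 members were called higher under each.

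The peptide loading genes and Ciita did not pass on that average. The difference was 0.16 ± 0.10 for H2-DMa (limma adjusted p = 0.274), 0.24 ± 0.11 for H2-DMb1 (0.108), 0.09 ± 0.06 for H2-Oa (0.258) and 0.22 ± 0.09 for Ciita (0.0814). The log2(TPM + 1) scale understates the change of low genes, among them Ciita, H2-Oa and H2-Ob. H2-Ob, below the minimum, differed by 0.07 when tested without it (adjusted p = 0.466).

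The average covered models whose differences had opposite signs, although no core gene was called lower in any model fitted alone. On the log2(TPM + 1) scale each core gene was higher in 6 models and lower in the other 6. CT26.WT counted among the higher, although by group means of TPM its LEN tumors were lower (a LEN to NT ratio of 0.853 for Cd74). The F test of a difference in the LEN effect between models was passed by 7 of 8 members, beside 35.3% of all genes, with adjusted p from 1.3e-05 for Cd74 to 0.000268 for Ciita, and H2-Oa did not pass (0.222). The average rested on 3 models: without B16-F10, BNL or EMT6 in turn no member was called, and Cd74 was 0.26, 0.35 and 0.31 (limma adjusted p = 0.142, 0.0768 and 0.104).

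**Figure D4:**
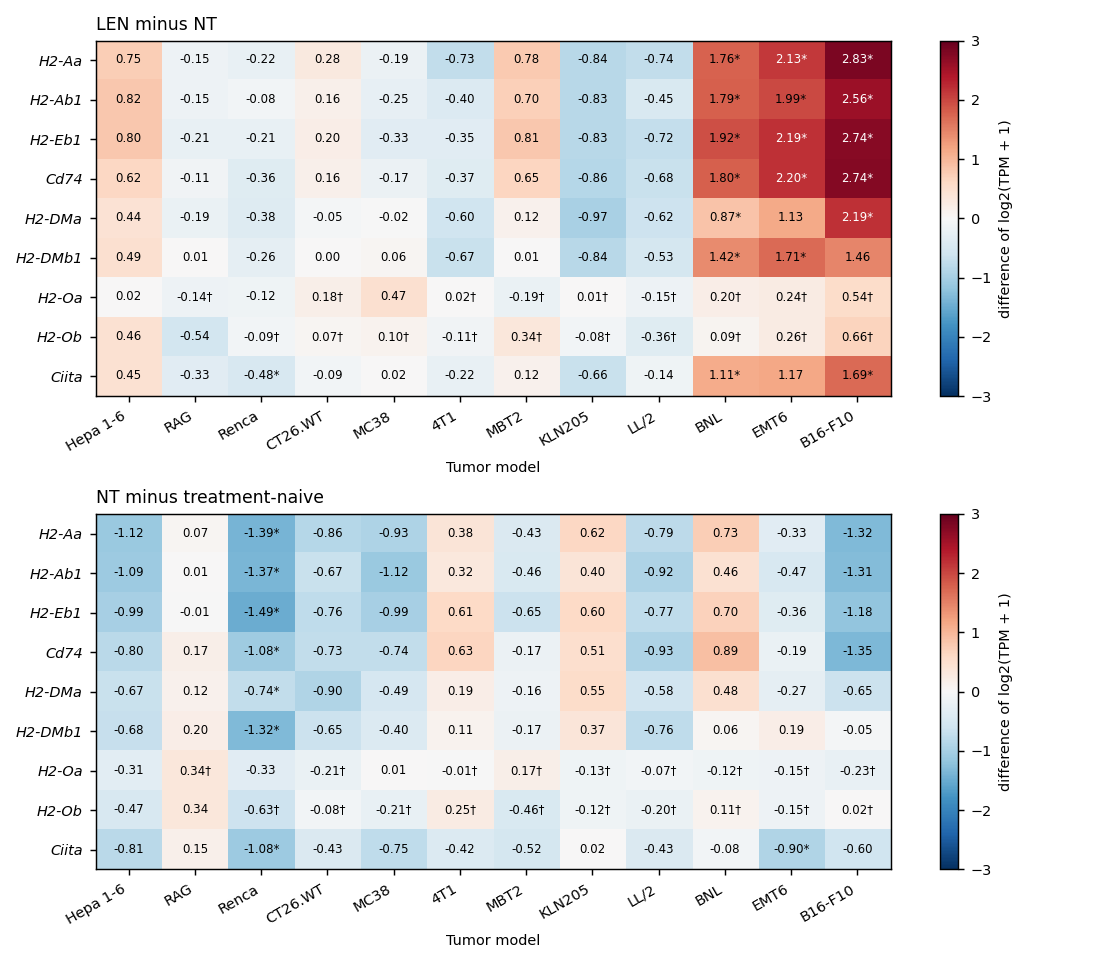
Difference of log2(TPM + 1) for each member (rows) and model (columns), LEN minus NT in 1 panel and NT minus treatment-naive in the other, with the value in each cell, an asterisk where the adjusted p in the fit of that model was under 0.05 and a dagger where the gene was below the TPM minimum and not tested. LEN calls fall in BNL, EMT6 and B16-F10 (higher) and in Renca (Ciita, lower), and NT calls against treatment-naive fall in Renca and EMT6 (lower).

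In B16-F10, a melanoma with the lowest treatment-naive Cd74 and Ciita, LEN tumors held several times more class II RNA than NT tumors. Cd74 measured 32.0, 117 and 22.7 TPM in the NT and 406, 233 and 291 TPM in the LEN tumors. H2-Ab1 measured 13.8, 43.0 and 10.0 TPM in the NT and 152, 82.1 and 115 TPM in the LEN tumors. Ciita measured 0.730, 2.61 and 0.380 TPM in the NT and 7.56, 4.47 and 5.19 TPM in the LEN tumors. Every LEN tumor lay above every NT tumor for these genes, and 1 NT tumor lay well above the other NT tumors. Of 7 members tested 6 rose, beside 8.57% of all genes of this model: H2-Aa by 2.83 ± 0.56, H2-Ab1 by 2.56 ± 0.51, H2-Eb1 by 2.74 ± 0.54, Cd74 by 2.74 ± 0.57, H2-DMa by 2.19 ± 0.49 and Ciita by 1.69 ± 0.37 (limma, adjusted p from 0.0239 to 0.0344). H2-DMb1 differed by 1.46 ± 0.40 (adjusted p = 0.0661). With 1 of the 6 tumors left out, each of these calls was kept in 1 of 6 fits, and the adjusted p of Cd74 reached 0.0997. With no minimum on TPM only the call of H2-Eb1 was kept (adjusted p = 0.0497), and the other 5 had an adjusted p of 0.0512 to 0.0687.

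Leukocyte genes moved along with class II in B16-F10. Ptprc measured 2.61, 7.00 and 2.71 TPM in NT and 24.9, 23.6 and 23.3 TPM in LEN tumors, a rise of 2.39 ± 0.30. All 6 macrophage markers rose, and their summed level was 60.3 to 89.0 TPM in NT and 196 to 279.9 TPM in LEN tumors. Of 4 dendritic cell markers tested only Ccr7 rose (1.45), with a summed level of 6.73 to 9.87 TPM in NT and 16.6 to 18.8 TPM in LEN tumors. Genes upstream of Ciita rose in 6 of 9 tests, among them Irf8 (2.42), Irf1 (2.01), the myeloid factor gene Spi1 (2.01) and the interferon feedback inhibitor gene Socs1 (1.83). The part of these cells in the class II difference was not tested. In bulk samples, fewer cells of a type and less RNA per cell cannot be told apart.

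In BNL, class II genes rose while no macrophage marker did. Cd74 measured 329, 349 and 215 TPM in NT and 996, 1016 and 1042 TPM in LEN tumors. H2-Aa measured 85.7, 88.1 and 62.4 TPM in NT and 273, 249 and 278 TPM in LEN tumors. Ciita measured 3.91, 3.55 and 2.28 TPM in NT and 7.05, 8.52 and 8.66 TPM in LEN tumors. The groups did not overlap for any of the 3 genes. All 7 members tested rose, beside 26.3% of all genes of this model: H2-Aa by 1.76 ± 0.13, H2-Ab1 by 1.79 ± 0.17, H2-Eb1 by 1.92 ± 0.14, Cd74 by 1.80 ± 0.17, H2-DMa by 0.87 ± 0.16, H2-DMb1 by 1.42 ± 0.16 and Ciita by 1.11 ± 0.18 (limma, adjusted p from 0.000162 to 0.00715). The median difference of all genes in this model was 0.17. Each of the 7 calls was kept in 6 of 6 fits without 1 tumor. H2-Ea-ps (1.72) and H2-DMb2 (1.26) rose as well.

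Ptprc in BNL measured 30.7, 34.1 and 34.4 TPM in NT and 46.6, 54.9 and 67.8 TPM in LEN tumors, a rise of 0.74 ± 0.13. The macrophage markers summed to 814 to 844 TPM in NT and 772 to 945 TPM in LEN tumors, and Csf1r fell by 0.35 ± 0.07. Of 7 dendritic cell markers tested 5 rose, Flt3 (0.88), Itgax (1.47), Ccr7 (0.97), Cd209a (1.43) and Siglech (1.22), and the list summed to 14.5 to 18.4 TPM in NT and 31.8 to 52.9 TPM in LEN tumors. Upstream of Ciita 6 of 9 rose, among them Irf8 (0.78), Jak2 (0.76) and the interferon gamma receptor gene Ifngr1 (0.66). The BNL groups also differed in the epithelial keratin gene Krt8, at 7.67 to 17.9 TPM in NT, 444 to 520.1 TPM in LEN and 71.9 to 83.2 TPM in treatment-naive tumors. Protein-coding genes took 54.3% to 57.4% of TPM in BNL NT and 60.2% to 61.9% in LEN tumors. The part of these differences in the class II result was not tested.

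In EMT6, a mammary carcinoma, class II genes rose, and Ptprc and the summed macrophage and dendritic cell markers overlapped between groups. Cd74 measured 178, 106 and 129 TPM in NT and 761, 419 and 749 TPM in LEN tumors. H2-Aa measured 40.9, 24.4 and 33.6 TPM in NT and 184, 96.2 and 171 TPM in LEN tumors. Ciita measured 1.35, 1.18 and 1.77 TPM in NT and 5.09, 2.70 and 6.13 TPM in LEN tumors. The groups did not overlap for these genes, and 1 LEN tumor was lower than the other LEN tumors. Of 7 members tested 5 rose, beside 0.819% of all genes of this model: H2-Aa by 2.13 ± 0.28, H2-Ab1 by 1.99 ± 0.31, H2-Eb1 by 2.19 ± 0.29, Cd74 by 2.20 ± 0.27 and H2-DMb1 by 1.71 ± 0.28 (limma, adjusted p from 0.0287 to 0.0477). H2-DMa differed by 1.13 ± 0.20 (adjusted p = 0.0583) and Ciita by 1.17 ± 0.27 (0.0988). These calls lay close to the threshold: without 1 tumor, Cd74 kept its call in 2 of 6 fits and the other 4 genes in 1 of 6. All 5 calls were also lost with no minimum on TPM (adjusted p = 0.0842 to 0.114), without a mean-variance trend and with upper-quartile rescaling.

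Ptprc in EMT6 measured 29.7, 26.8 and 35.9 TPM in NT and 49.8, 26.7 and 39.1 TPM in LEN tumors, a difference of 0.28 ± 0.22 (limma adjusted p = 0.559). The LEN tumor lowest for Ptprc was also the lowest for Cd74, and the other LEN tumors lay above every NT tumor for Ptprc. The macrophage markers summed to 405 to 492 TPM in NT and 412 to 646 TPM in LEN tumors, and the dendritic cell markers to 6.98 to 15.8 TPM and 11.3 to 19.6 TPM. The T cell markers summed to 4.11 to 4.72 TPM in NT and 7.74 to 11.4 TPM in LEN tumors, without overlap. Of 6 macrophage, 4 dendritic cell and 4 T cell markers tested, none passed limma's threshold in EMT6. Upstream of Ciita, Socs1 differed by 0.80 ± 0.14 (adjusted p = 0.0537), and none of the 9 genes tested passed. H2-Ea-ps rose by 1.97 ± 0.31. Protein-coding genes took 57.2% to 61.0% of TPM in NT and 62.8% to 66.6% in LEN tumors. The part of other cells and of this share in the class II difference was not tested.

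**Figure D5:**
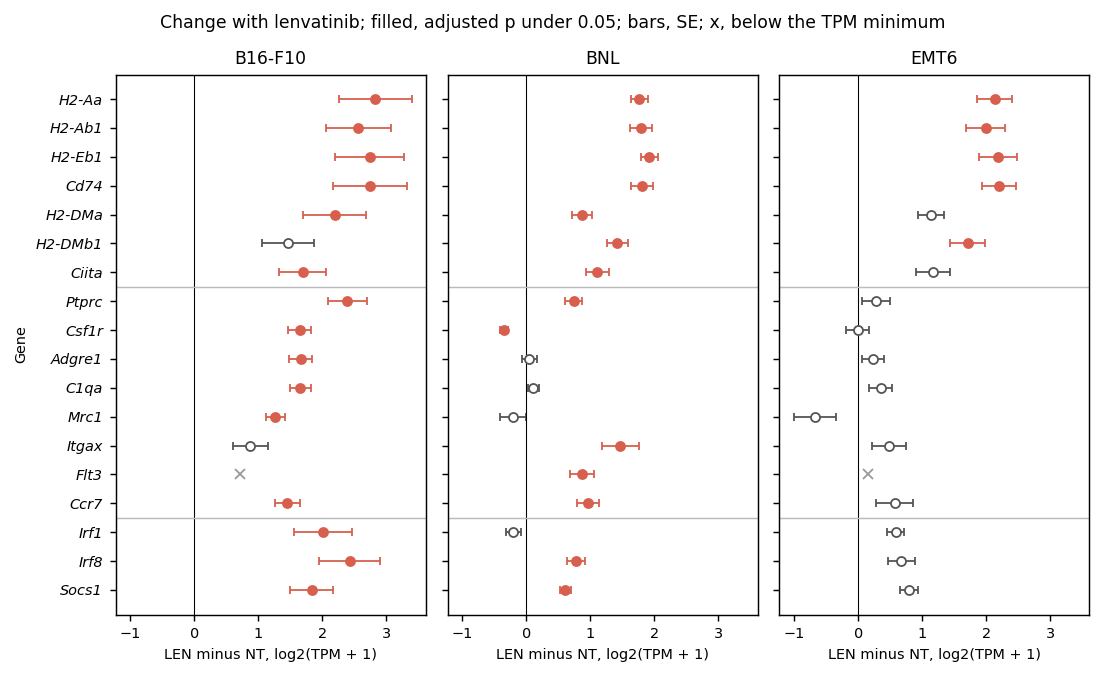
LEN minus NT (difference of log2(TPM + 1)) for class II members, cell markers and upstream genes in B16-F10, BNL and EMT6, with filled red points for an adjusted p under 0.05, open points otherwise, bars for SE and crosses for genes below the TPM minimum. Class II genes lie on the higher side in all 3 models, and the plotted macrophage genes (Csf1r, Adgre1, C1qa and Mrc1) are called higher in B16-F10 only.

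Of the other 9 models, Renca alone had a call, for Ciita. Ciita measured 4.99, 5.64 and 6.00 TPM in Renca NT and 3.83, 3.33 and 3.95 TPM in LEN tumors, without overlap, and fell by 0.48 ± 0.11 (limma adjusted p = 0.0343), beside 7.15% of all genes of this model called lower. The call was kept in 1 of 6 fits without 1 tumor. Cd74 differed by -0.36 ± 0.11 (adjusted p = 0.0867) and H2-Ab1 by -0.08 ± 0.12 (0.718). Of 6 macrophage markers in Renca 5 fell, from a sum of 648 to 729 TPM to 336 to 359.7 TPM, Ptprc fell by 0.87 ± 0.08, and their part in the Ciita difference was not tested.

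In the remaining 8 models none of 60 tests of members passed limma's threshold, beside 0.0697% of all genes in either direction, pooled over these models. At an unadjusted p under 0.05, 6 of these tests were higher (5 in Hepa 1-6 and 1 in MC38) and 8 lower (7 in KLN205 and 1 in LL/2). The share of all genes at that unadjusted threshold is not given here, so these counts cannot be read against a background. In Hepa 1-6 Cd74 measured 1551, 1092 and 1469.9 TPM in NT and 2608, 2109 and 1659 TPM in LEN tumors, a difference of 0.62 ± 0.21 (adjusted p = 0.145). In KLN205 it measured 287, 365 and 431 TPM in NT and 209, 246 and 147 TPM in LEN tumors, a difference of -0.86 ± 0.22 (adjusted p = 0.159). The groups did not overlap in either model, with LEN above NT in Hepa 1-6 and below it in KLN205. In KLN205 the macrophage markers summed to 418 to 479 TPM in NT and 237 to 306 TPM in LEN tumors, the dendritic cell markers to 36.8 to 44.3 and 23.9 to 28.0 TPM, and Ptprc measured 26.8, 32.5 and 34.1 TPM and 22.6, 21.6 and 17.1 TPM, all lower in LEN without overlap. In Hepa 1-6 the dendritic cell markers summed to 53.3 to 78.8 TPM in NT and 83.7 to 106 TPM in LEN tumors, higher without overlap, while Ptprc and the macrophage sum overlapped. No marker tested of these 3 lists passed limma's threshold in either model, and their part in the Cd74 differences was not tested. For the other 6 of these models the Cd74 difference lay between -0.68 (LL/2) and 0.65 (MBT2).

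Other genes of the pathway were read on the same average over models. None of the 7 enhanceosome genes that meet Ciita at the X and Y boxes (Rfx5, Rfxap, Rfxank, Nfya, Nfyb, Nfyc and Creb1) passed with LEN in limma, and 1 had an unadjusted p under 0.05, Nfyc at -0.09 ± 0.04. Of 9 genes upstream of Ciita 7 rose and none fell, among them the signalling genes Ifngr1 (0.12), Jak1 (0.11) and Jak2 (0.22), the factors Irf1 (0.31 ± 0.09) and Irf8 (0.25 ± 0.09), and the inhibitor Socs1 (0.41 ± 0.09). Some of these averages rested on B16-F10: without it Irf8 was 0.06 (adjusted p = 0.66), Irf1 0.16 (adjusted p = 0.232) and Ifngr1 0.06 (adjusted p = 0.233), while Socs1 stayed called at 0.29 (adjusted p = 0.0144). Jak1, Jak2 and Socs1 were called in each of 12 fits without 1 model, Irf1 in 11 of 12, Ifngr1 in 10 of 12 and Irf8 in 8 of 12. Of 7 processing and turnover genes, the endosomal protease gene Lgmn (-0.14) and the lysosomal thiol reductase gene Ifi30 (-0.19) fell and none rose, and their calls were kept in 8 of 12 and 9 of 12 such fits. Of 5 partner genes, Cd4, the coreceptor that binds class II, rose by 0.23 ± 0.08 and the costimulatory gene Cd80 by 0.30 ± 0.07, with calls kept in 6 of 12 and 12 of 12 fits. Among cell markers, 5 of 6 macrophage genes fell, 3 of 6 dendritic cell genes and 4 of 4 T cell genes rose, and Ptprc differed by 0.05 ± 0.09 (adjusted p = 0.76). The monocyte gene Ly6c2 rose by 1.02 ± 0.15 and was higher in 12 of 12 models, whereas Ccr2 differed by 0.17 ± 0.09 (adjusted p = 0.191). Both neutrophil genes rose, S100a8 by 0.73 ± 0.16 and Csf3r by 0.37 ± 0.08. All 3 endothelial genes fell, with Cdh5 at -1.17 ± 0.06, and 2 of 3 epithelial genes, Krt8 and Krt18, were called higher only with BNL included: without it they were -0.0246 and -0.0364 (adjusted p = 0.876 and 0.809). Of the dendritic and T cell genes called higher, Cd209a kept its call in 7 of 12 fits without 1 model, Trac in 6 of 12 and Cd8a in 11 of 12, and the others in each. The part of these cells in the class II average was not tested.

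The untreated course over the week was read from NT against treatment-naive tumors, a comparison that shares the NT tumors with the one above. This comparison cannot tell a week of growth apart from tumor size or a separate collection. The protein-coding share of TPM was higher in NT without overlap in EMT6, KLN205, BNL and 4T1. That share was lower without overlap in CT26.WT and Hepa 1-6, and overlapped in the other models. Averaged over models, H2-Aa fell by 0.45 ± 0.15, H2-Ab1 by 0.52 ± 0.14, H2-Eb1 by 0.44 ± 0.15 and Ciita by 0.49 ± 0.11 (log2(TPM + 1) ± SE, 71 tumors). The limma adjusted p-values were 0.0172, 0.00357, 0.0216 and 0.000652, and Ciita was lower in 10 of 12 models. These 4 of 8 members tested stand beside 11.5% of all 17428 genes called lower and 17.0% higher. The differences of Cd74 (-0.32 ± 0.14, adjusted p = 0.0943), H2-DMa (-0.26 ± 0.11, 0.0617), H2-DMb1 (-0.26 ± 0.12, 0.114) and H2-Oa (-0.09 ± 0.07, 0.399) did not pass. The scaling bears on this comparison: of the calls over all genes 59.7% were higher, but 28.8% after upper-quartile rescaling, with 6 members lower, and 23.3% after rescaling over protein-coding genes, with 8 members lower. Cd74 had an adjusted p of 0.0456 and H2-DMa of 0.0219 after the first, and 0.0309 and 0.0134 after the second, in which H2-DMb1 (0.0485) and H2-Ob (0.0301) were also lower. Without Renca, B16-F10 or Hepa 1-6 in turn, 2 members were called lower.

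Renca held most of the calls within models. Cd74 measured 943, 1093 and 962 TPM in treatment-naive and 444, 470.3 and 504 TPM in NT tumors. H2-Ab1 measured 268, 279.9 and 247 TPM in treatment-naive and 97.1, 94.2 and 116 TPM in NT tumors. Ciita measured 12.3, 14.9 and 11.4 TPM in treatment-naive and 4.99, 5.64 and 6.00 TPM in NT tumors. None of these groups overlapped. Of 8 members tested 7 fell, beside 7.08% of all genes of this model, from 0.74 ± 0.11 for H2-DMa to 1.49 ± 0.10 for H2-Eb1, and H2-Oa differed by -0.33 ± 0.21 (limma adjusted p = 0.432). Each of the 7 calls was kept in 6 of 6 fits without 1 tumor, but with all models fitted together only those of H2-Eb1 and H2-DMb1 were.

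Leukocyte, macrophage and dendritic cell genes moved with the class II genes in these Renca tumors. Ptprc, the pan-leukocyte gene, measured 57.5, 66.0 and 56.2 TPM in treatment-naive and 34.9, 34.5 and 35.5 TPM in NT tumors and fell by 0.76 on the log2(TPM + 1) scale. Of 6 macrophage markers 3 fell, and their sum lay at 873 to 969 TPM in treatment-naive and 648 to 729 TPM in NT tumors. Of 5 dendritic cell markers tested 4 fell, and the sum of that list lay at 44.7 to 59.1 TPM in treatment-naive and 24.02 to 25.5 TPM in NT tumors. The dendritic cell integrin gene Itgax measured 22.0, 25.2 and 17.6 TPM in treatment-naive and 12.7, 13.1 and 14.2 TPM in NT tumors. The complement gene C1qa, a macrophage marker, measured 265, 256 and 281 TPM and 192, 180.2 and 203 TPM. None of these groups or sums overlapped. Both monocyte markers, 2 of 3 T cell markers tested and all 3 endothelial markers also fell, and the part of these cells in the class II difference was not tested.

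In EMT6 Ciita measured 4.09, 2.96 and 3.59 TPM in treatment-naive and 1.35, 1.18 and 1.77 TPM in NT tumors, without overlap, and fell by 0.90 ± 0.19 (limma adjusted p = 0.0168), beside 4.51% of all genes of this model. The call was kept in 3 of 6 fits without 1 tumor and lost with all models fitted together. Protein-coding genes took 43.5% to 45.9% of TPM in treatment-naive and 57.2% to 61.0% in NT tumors of EMT6. The part of this share in the Ciita difference was not tested. The dendritic cell markers summed to 18.8 to 26.4 TPM in treatment-naive and 6.98 to 15.8 TPM in NT tumors of EMT6 and Ptprc measured 36.3, 38.3 and 41.2 TPM and 29.7, 26.8 and 35.9 TPM, both without overlap, and their part in the Ciita difference was not tested. In the other 10 models no member passed limma's threshold, beside 6.64% of all genes in either direction. Of 74 tests there 19 were lower and 1 higher at an unadjusted p under 0.05. The share of all genes at that unadjusted threshold is not given here, so these counts have no background beside them. The F test of a difference between models was passed by 2 of 8 members, H2-Aa (adjusted p = 0.0448) and Cd74 (0.0437), beside 66.5% of all genes. Averaged over models, Ptprc fell by 0.35 ± 0.08 and 6 of 6 dendritic cell markers tested fell, with Cd209a at -0.57 and Siglech at -0.39. Both monocyte markers and 2 of 3 endothelial markers also fell, and their part in the class II difference was not tested.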

How the data were processed

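RNA was measured in whole subcutaneous tumors from ribosomal RNA-depleted libraries. The authors deposited 1 table of TPM values (transcript abundance scaled to a fixed total in each tumor) for 50686 genes. The submitters' processing notes name bcl2fastq, Trimmomatic 0.36, STAR 2.5.2b and RSEM 1.2.31, with the mm10 (GRCm38) genome. Whether strand was counted is not given in the sources used here.

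Groups came from the sample labels. Statements that groups did not overlap describe the tumors measured, and the share of all genes without overlap is not given here. The values were analysed as log2(TPM + 1) with the linear models of limma 3.58.1 (R 4.3.3), whose empirical Bayes step followed the trend of variance with mean, on genes with a mean of at least 1 TPM in the tumors fitted, with Benjamini-Hochberg adjustment over all genes tested and a threshold of 0.05. Each model was fitted alone for its own comparisons, and all models together for averages and F tests. Haplotypes were compared with a two-sided exact permutation test of model means (scipy 1.17.1, Python 3.11.15). Per the study's methods, cells were implanted in 1 flank of each mouse and animals were assigned to treatment at random, so p-values measure the spread between mice bearing 1 implanted line. Scripts were tested on simulated data.

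The members and lists were chosen with earlier results of these data known. Values were given for all 9 genes, and for other lists as counts with the genes past the threshold on the average over models, and cell markers were also given within models beside the results they moved with. The genes most like a member were the 5 with the highest Pearson r. Alternatives were another pseudocount (0.1), no minimum or a minimum of 5 TPM, no trend, rescaling by the upper quartile or over protein-coding genes, the replicate number as a block, and leaving out each tumor or model. Fitting all models together for the comparisons within models, and leaving out each model for genes other than the members, were added after seeing the data. Some genes of the marker and pathway lists are not reported here. Promoter sequences came from RefSeq, GRCm38.p6.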

Additional observations from a re-analysis of the deposited data

Results flagged for a closer look

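The effect of LEN against NT differed between the 12 models by a limma F test for 7 members: Cd74 (adjusted p = 1.3e-05), H2-DMa (2.57e-05), H2-Aa (2.83e-05), H2-Eb1 (3.04e-05), H2-Ab1 (4.85e-05), H2-DMb1 (0.00024) and Ciita (0.000268). B16-F10, EMT6 and BNL had the largest rises among the 12 models for each of these genes. The difference of NT from treatment-naive tumors differed between models by the same limma test for H2-Aa (adjusted p = 0.0448) and Cd74 (0.0437), both close to the threshold.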

How the results depend on the processing

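Among values other than counts, 840 alternatives kept direction and side of the threshold, 112 lost a call, 25 gained one and 3 changed sign: the LEN average of H2-DMa, which was not called, was -0.0247 without B16-F10, and those of Krt8 and Krt18 were -0.0246 and -0.0364 without BNL. On the LEN average, 4 members were higher, and 0 without BNL, without EMT6 or without B16-F10. Within models, 18 LEN calls were higher, against 9 with no minimum on TPM and 11 without the trend. The 1 lower call (Ciita in Renca) became 0 with no minimum, with upper-quartile rescaling and with all models fitted together, and 3 lower calls came with rescaling over protein-coding genes. For NT against treatment-naive, the average gave 4 lower members, against 8 with rescaling over protein-coding genes and 2 without Renca, without B16-F10 or without Hepa 1-6. The 2 F test calls of that comparison became 1 with no minimum, 0 with upper-quartile rescaling, 1 with rescaling over protein-coding genes, 0 without BNL, Renca, KLN205 or Hepa 1-6, 1 without RAG, 4T1 or LL/2 and 4 without CT26.WT. Its 8 lower calls within models became 13 with a minimum of 5 TPM, 17 with rescaling over protein-coding genes and 2 with all models fitted together. The causes were not tested.

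With 1 tumor left out, the calls ranged from 4 to 6 (LEN average, higher), 12 to 19 (LEN within models, higher), 0 to 2 (lower), 4 to 6 (NT average, lower), 0 to 6 (its F test), 7 to 13 (NT within models, lower) and 0 to 3 (higher), and 7 to 8 between treatment-naive models. The F test of the LEN effect gave 7 and the haplotype test 0 in each such fit.

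Replicate numbers did not pair the tumors: the deviations of same-numbered NT and LEN tumors had a median r of 0.0125 over 20 pairs, with 0 over 0.1, and those of treatment-naive and NT tumors a median of -0.0151 over 25 pairs. With the replicate number as a block, the LEN average had 5 higher members, LEN within models 22 higher and 0 lower calls, and NT against treatment-naive 0 lower members on average and 0 within models; the 4 members called without it had an adjusted p of 0.0600 to 0.196, and H2-Aa differed by -0.29. TPM keeps no depth, so the counting error of low members such as H2-Oa and H2-Ob is unknown.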
